A study of Mus musculus with 12 samples.

Results

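Ubxn4, Wdr19, Lyar, Cox17, Fkbp11 and Serpinb1c are 6 mouse genes that share a pattern of array signal in C2C12 cells: a probe of each was bright on the arrays of cells transfected with the negative control and dim on those of the 3 other transfection groups. They were chosen for that pattern, so the signals that set the negative control apart describe the choice and carry no test. All probes whose accession belongs to these genes were taken, which gave 7 probes for the 6 genes, out of 39429 probes and 20659 genes with a RefSeq symbol on the array. C2C12 is a mouse myoblast line that can fuse into myotubes. RNA was measured on 12 single-colour arrays, 3 for each of 4 groups, 72 h after transfection with siRNA, with pcDNA3.1-MEG3, with pcDNA3.1 or with the negative control. MEG3 is an imprinted long non-coding RNA, and the titles call the siRNA and pcDNA3.1-MEG3 groups its knockdown and its overexpression. The pcDNA3.1 group was taken from the transfection field, its titles giving an unexplained short name in its place. The labels do not say what the negative control consisted of, or whether replicates were separate cultures, so p-values reflect how much these arrays scattered, part of which may be technical.

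The 6 genes belong to different processes. Ubxn4 is a UBX-domain protein of the endoplasmic reticulum (ER) membrane that binds the ATPase Vcp and takes part in the degradation of misfolded ER proteins. Wdr19, also called Ift144, is a subunit of intraflagellar transport complex A, which carries cargo back from the tip of the cilium. Lyar is a nucleolar zinc-finger protein linked to cell growth and ribosome production. Cox17 is a copper chaperone of the mitochondrial intermembrane space that hands copper to Sco1 and Cox11 during assembly of cytochrome c oxidase. Fkbp11 is an ER member of the FK506-binding proteins, a family of peptidyl-prolyl isomerases, and is known from secretory cells. Serpinb1c is a clade B serpin, a mouse paralog of Serpinb1a and Serpinb1b.

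Promoter sequences are shown for Ubxn4, Wdr19 and Serpinb1c, the 3 genes that passed a test below in the same direction. For Ubxn4 that pass is description only, since the negative control, for which it was chosen, alone kept it in the test. Each is the window of 250 bases before a RefSeq start site on GRCm38.p6, on the gene's strand, and capitals mark the E-box CANNTG, the motif class bound by MyoD and other basic helix-loop-helix factors. The windows are chr1:128243887-128244136 on the plus strand for Ubxn4, chr5:65199446-65199695 on the plus strand for Wdr19, and chr13:32940601-32940850 and chr13:32898141-32898390 on the minus strand for the start sites 1 and 2 of Serpinb1c.
Ubxn4: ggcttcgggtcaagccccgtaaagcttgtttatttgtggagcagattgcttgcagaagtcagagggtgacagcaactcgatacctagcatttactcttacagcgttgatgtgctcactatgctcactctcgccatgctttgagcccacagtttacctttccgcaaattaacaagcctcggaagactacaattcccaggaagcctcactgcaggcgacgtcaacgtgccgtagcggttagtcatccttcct
Wdr19: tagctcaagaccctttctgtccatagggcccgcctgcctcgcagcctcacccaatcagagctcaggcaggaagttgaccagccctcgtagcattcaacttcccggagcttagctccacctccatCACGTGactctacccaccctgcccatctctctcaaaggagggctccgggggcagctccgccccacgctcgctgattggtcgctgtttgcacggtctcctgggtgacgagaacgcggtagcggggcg
Serpinb1c start site 1: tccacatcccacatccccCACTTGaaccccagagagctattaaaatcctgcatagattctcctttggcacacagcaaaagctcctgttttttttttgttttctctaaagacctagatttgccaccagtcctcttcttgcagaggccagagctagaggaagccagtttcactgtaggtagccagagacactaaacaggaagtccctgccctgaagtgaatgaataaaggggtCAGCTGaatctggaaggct
Serpinb1c start site 2: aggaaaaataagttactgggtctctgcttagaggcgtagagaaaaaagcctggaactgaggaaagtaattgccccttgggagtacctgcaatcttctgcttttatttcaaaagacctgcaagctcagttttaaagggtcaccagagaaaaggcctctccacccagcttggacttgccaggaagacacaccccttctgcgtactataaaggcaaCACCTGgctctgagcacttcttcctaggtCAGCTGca
Over both strands, the Ubxn4 window held 0 E-boxes, the Wdr19 window 1 and each Serpinb1c window 2, and 66.2% of 32851 mouse promoter windows of this length held at least 1. The Wdr19 window also held 2 CCAAT motifs and 1 GGGCGG motif, which occurred in 33.8% and 32.7% of all windows. A TATAAA motif, found in 12.4% of windows, lay in that of Serpinb1c start site 2. The windows differed in CpG content, with 12 CG pairs for Ubxn4 and 16 for Wdr19, but 0 and 2 for Serpinb1c, against a median of 6. Of the other genes, the Lyar window held 32 CG pairs, more than 95.4% of promoters, and 1 E-box. The windows of Fkbp11 start sites 1 and 2 held 2 and 0 E-boxes. These matches describe the letters in the windows only.

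The arrays fell into 5 scan runs. All 3 negative control arrays were in 1 run, both plasmid groups shared a run for replicates 1 and 2 and a run for replicate 3, and the siRNA arrays had runs of their own. Negative control and scan run therefore cannot be told apart, nor can siRNA and scan run, and only the plasmid comparison lies within runs. In those runs pcDNA3.1 arrays were at array positions 1 and 2 and pcDNA3.1-MEG3 arrays at 3 and 4. Plasmid and position therefore cannot be told apart either. Replicates 1 and 3 of siRNA, pcDNA3.1-MEG3 and pcDNA3.1 shared an array position and differed by 0.243, 0.339 and 0.261 times the noise between spots of 1 array. In the negative control they differed by 0.810 times that noise. Replicates 1 and 3 were averaged to 1 sample in each group, giving 2 samples per group, and an SD is over these 2. In siRNA, pcDNA3.1-MEG3 and pcDNA3.1, replicates 1 and 2 differed by 1.03, 0.873 and 0.949 times the spot noise. The 2 samples of each of these groups thus scattered about as much as spots of 1 array. Their SDs, and p-values among these groups, may reflect technical noise rather than separate cultures. Negative control replicate 2 stood apart from its group: it differed from replicates 1 and 3 by 4.16 and 3.76 times the spot noise, and its 75th percentile of signal was 2266, against 1168 to 1601 on the other arrays. Between 24454 and 29929 probes per array were well above background by the scanner software's flag. Of 8 myoblast markers, 7 were above background on all arrays, and the summed signal of the 8 relative to the 75th percentile was 73.7 to 75.8 on siRNA arrays, 29.5 to 31.5 on pcDNA3.1-MEG3 arrays, 35.2 to 35.3 on pcDNA3.1 arrays and 33.6 to 39.1 on negative control arrays. The marker outside these 7 was Myf5, above background on all siRNA and negative control arrays, 1 pcDNA3.1-MEG3 array and 2 pcDNA3.1 arrays. As log2 relative to the 75th percentile, Myf5 averaged -1.9999 in the negative control and -4.87 with siRNA. With pcDNA3.1-MEG3 and pcDNA3.1, where not all arrays detected it, Myf5 averaged -6.80 and -6.44. The sum comes mostly from Chrna1, Itga7 and Megf10 and does not show this difference. Of the 3 epithelial markers, Epcam and Cdh1 were above background on 0 arrays and Krt8 on 1 siRNA array. Of the leukocyte, endothelial and adipocyte markers, 2, 2 and 1 were above background on all arrays, with sums of 0.185 to 0.606, 0.888 to 1.35 and 0.128 to 0.301 over all groups. The brightest of 3 Meg3 probes went against the plasmid labels: 0 of the 3 arrays labelled pcDNA3.1-MEG3 and all 3 labelled pcDNA3.1 detected it, so directions between these groups hold for the labels only. It was above background on 0 siRNA arrays and 1 negative control array, so a knockdown cannot be read from it. The other Meg3 probes were not read.

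Ubxn4 and Wdr19 were the genes that fell below detection in both plasmid groups. The Ubxn4 probe A_52_P401475 had processed signals of 31.3, 35.8 and 25.8 on siRNA arrays, 3.31, 7.03 and 4.77 on pcDNA3.1-MEG3 arrays and 8.64, 6.21 and 4.58 on pcDNA3.1 arrays, against 418, 685 and 585 on negative control arrays. It was well above background on 2 siRNA arrays, 0 plasmid arrays and 3 negative control arrays. The signals did not overlap between the negative control and any other group. The Wdr19 probe A_55_P1965273 had 57.0, 52.8 and 52.6 on siRNA arrays, 15.2, 10.7 and 12.9 on pcDNA3.1-MEG3 arrays and 14.2, 14.8 and 11.9 on pcDNA3.1 arrays, against 651, 629 and 618 on negative control arrays. All siRNA arrays, 0 plasmid arrays and all negative control arrays were well above background for Wdr19. Where arrays of a group did not detect a probe, a bound is given, for which the dim value on each array was raised to the dimmest signal that counted as detected there. On signals scaled to the 75th percentile of their array, Ubxn4 was at least 13.3-fold lower with siRNA, at least 40.2-fold lower with pcDNA3.1-MEG3 and at least 34.1-fold lower with pcDNA3.1 than with the negative control. Wdr19 was 8.56-fold lower with siRNA, at least 41.7-fold lower with pcDNA3.1-MEG3 and at least 33.1-fold lower with pcDNA3.1. In these bulk RNA samples, fewer cells with the transcript and less transcript per cell cannot be told apart.

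For Lyar and Cox17, the signals on siRNA arrays overlapped with those on plasmid arrays. The Lyar probe A_55_P2074982 had 15.1, 14.4 and 17.7 on siRNA arrays, 21.1, 13.3 and 19.8 on pcDNA3.1-MEG3 arrays and 17.7, 26.0 and 18.3 on pcDNA3.1 arrays, against 239, 269 and 234 on negative control arrays. It was well above background on 0 siRNA arrays, 2 pcDNA3.1-MEG3 arrays and 3 pcDNA3.1 arrays. Lyar was at least 11.1-fold lower with siRNA, at least 13.8-fold lower with pcDNA3.1-MEG3 and 9.68-fold lower with pcDNA3.1 than with the negative control. The Cox17 probe A_55_P2036967 had 75.1, 29.6 and 78.7 on siRNA arrays, 62.5, 72.3 and 52.6 on pcDNA3.1-MEG3 arrays and 75.7, 74.3 and 74.8 on pcDNA3.1 arrays, against 632, 768 and 690 on negative control arrays. This probe was well above background on all 12 arrays, and siRNA replicate 2 was its dimmest. Cox17 was 10.9-fold lower with siRNA, 10.3-fold lower with pcDNA3.1-MEG3 and 7.89-fold lower with pcDNA3.1.

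Fkbp11 and Serpinb1c were above background on all 12 arrays and still far dimmer in the 3 other groups. The Fkbp11 probe A_51_P130727 had 313, 97.6 and 306 on siRNA arrays, 53.9, 49.8 and 55.6 on pcDNA3.1-MEG3 arrays and 79.7, 125 and 80.4 on pcDNA3.1 arrays, against 6996, 3123 and 4587 on negative control arrays. Replicate 2 was the low array in both the siRNA and the negative control group. Fkbp11 was 17.6-fold lower with siRNA, 74.8-fold lower with pcDNA3.1-MEG3 and 34.9-fold lower with pcDNA3.1 than with the negative control. The Serpinb1c probe A_52_P493477 had 86.8, 94.8 and 83.2 on siRNA arrays, 52.0, 51.2 and 53.5 on pcDNA3.1-MEG3 arrays and 33.9, 34.1 and 34.4 on pcDNA3.1 arrays, against 915, 1941 and 846 on negative control arrays. Here the 4 groups lay in separate bands, with the spread within each dim group small beside the steps between them. Serpinb1c was 10.6-fold lower with siRNA, 23.4-fold lower with pcDNA3.1-MEG3 and 31.8-fold lower with pcDNA3.1. Whether the Serpinb1c probe also binds RNA of its paralogs was not tested.

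**Figure D1:**
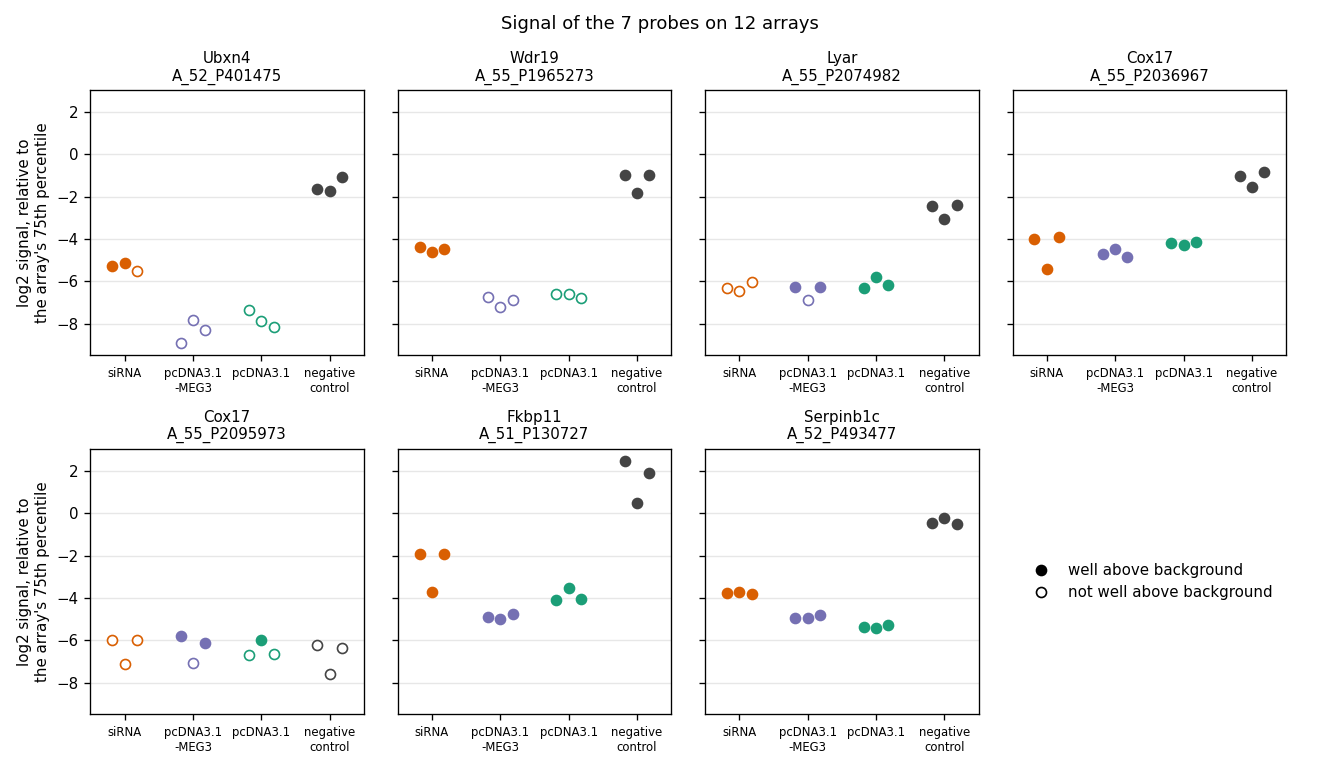
Signal of the 7 probes of the 6 genes on each of the 12 arrays, as log2 relative to the 75th percentile of the array. Each point is an array, filled where well above background. Except for the second Cox17 probe A_55_P2095973, the 3 negative control arrays of each probe lie above the 9 others.

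Each of the 6 genes was bright on all 3 negative control arrays, with and without replicate 2. On the scaled log2 measure, replicate 2 differed from the mean of replicates 1 and 3 in the negative control by -0.39 for Ubxn4, -0.87 for Wdr19, -0.67 for Lyar, -0.64 for Cox17, -1.72 for Fkbp11 and 0.29 for Serpinb1c. The mean difference of the 3 other groups from the negative control, -5.16 for Fkbp11, was -6.02 without negative control replicate 2 and -4.30 without replicates 1 and 3. For Cox17 and Serpinb1c, also detected on all arrays, the differences moved less: in the same order of omissions they were -3.58 and -2.94 for Cox17 and -4.17 and -4.46 for Serpinb1c.

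The gap between the lowest negative control array and the highest of the 9 others places the 6 probes among all probes of the array. It was 3.42 log2 units for Ubxn4, or 10.7-fold, which ranked 3 among 26364 probes above background on every negative control array. Serpinb1c had a gap of 3.22 and rank 5, Lyar 2.72 and rank 19, Wdr19 2.54 and rank 28, Fkbp11 2.39 and rank 37, and Cox17 2.33 and rank 39. In all, 67 probes had a gap of at least 2 log2 units, which is 0.254% of these probes, and the 6 are among them by their choice. In the test of the 3 other groups' mean against the negative control, which describes the choice and is not read for the 6 genes, 17.4% of all probes passed, 10.7% as higher and 6.63% as lower. The same gap was found above all other groups for 154 probes on siRNA arrays, 1 probe on pcDNA3.1-MEG3 arrays and 9 probes on pcDNA3.1 arrays. In the opposite direction, 13 probes lay at least 2 log2 units lower on every negative control array than on the others. The 6 other named genes with the largest gaps were Cbx7, Fbxo25 with 3.45, Tbc1d14 with 3.32, Mapkap1 with 3.00, C1s2 with 2.95 and Smg8 with 2.88 log2 units over the 12 arrays. Cbx7 was detected on 0 arrays outside the negative control, and with those arrays raised to their dimmest detected signal its gap is at least 3.52, still the largest of these 6. Cbx7 is a Polycomb protein and Mapkap1 a subunit of the mTORC2 kinase complex.

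A second probe could be compared for 1 of the 6 genes, Cox17. The Cox17 probe A_55_P2095973 had signals of 18.9, 9.10 and 18.3 on siRNA arrays, 28.4, 11.8 and 21.2 on pcDNA3.1-MEG3 arrays and 13.4, 22.4 and 13.1 on pcDNA3.1 arrays, against 17.2, 11.9 and 14.9 on negative control arrays. It was well above background on 0 siRNA, 2 pcDNA3.1-MEG3, 1 pcDNA3.1 and 0 negative control arrays. The groups overlapped, and with the negative control at background no fold is given, so the brightness of the first Cox17 probe on these arrays was not seen with the second. The 5 other genes have 1 probe each.

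Other probes of the same gene were also compared over the 67 probes. Of these, 37 had a gene symbol, 55.2% against 73.0% of all probes kept, and 17 had another kept probe of the same gene, 21 such probes in all. The negative control minus the mean of the 3 other groups had a median of 3.88 log2 units over the bright probes for which another probe was available. Over the 21 other probes the median was 0.04, with a range of -0.86 to 2.01, and 11 of 21 were higher in the negative control. Among them, 0 had a gap of 2 log2 units. For Fbxo25, Tbc1d14, Mapkap1 and C1s2 the other probe differed by 0.04, 0.09, -0.41 and 0.51 log2 units. The exception past 2 log2 units was a probe of the cell cycle kinase Cdk1, A_55_P2048588, with 2.01, while a further Cdk1 probe, A_55_P2016647, had -0.71; Cdk1 is named here after its values were seen. Of the 154 probes bright on siRNA arrays alone, 141 had a symbol, or 91.6%, and 37 formed 45 pairs with another probe of their gene. In 16 of these pairs both probes had been picked for the gap, the 2 probes of 8 genes paired in both directions. The pairs hold 28 other probes that were not picked, of 22 genes, and of these 8 were higher on siRNA arrays by over 2 log2 units and 18 higher at all, with a median of 0.65. In the negative control set, 0 pairs had both probes picked. The difference between the siRNA and the negative control sets was not tested, since both were picked by the values compared.

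**Figure D2:**
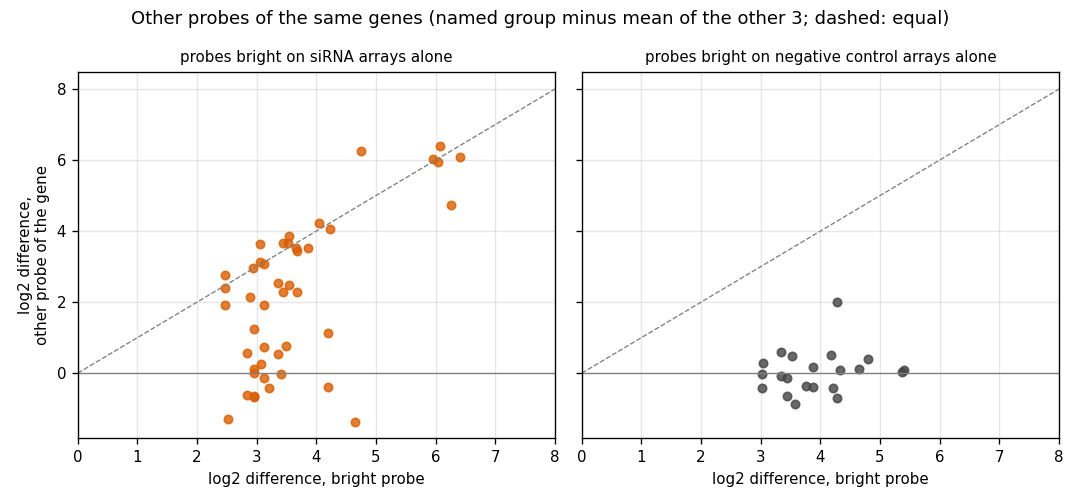
For probes at least 2 log2 units brighter on all siRNA arrays (left) or all negative control arrays (right) than on the 9 others, the log2 difference of that probe (horizontal) and of another probe of the same gene (vertical), each as the named group minus the mean of the 3 other groups. Points near the dashed line differ equally. Of the 45 siRNA points, 16 are 8 genes shown in both directions, with both probes picked for the gap. The 21 negative control points have a vertical median of 0.04.

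The surroundings of the 6 spots on the array were measured as well. For the 6 nearest spots of each probe, the median of the negative control minus the mean of the other groups was -0.16 around Ubxn4, 0.14 around Wdr19, -0.05 around Lyar, 0.25 around Cox17, -0.72 around Fkbp11 and -0.76 around Serpinb1c, in log2 units. The probes themselves had 3.26 for Cox17, 5.16 for Fkbp11 and 4.31 for Serpinb1c, while Ubxn4, Wdr19 and Lyar have the bounds given above. Around Cox17 at least 1 spot was also brighter, with a highest value of 3.57.

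Among the 3 dim groups, which the choice of genes did not set apart, Ubxn4, Wdr19 and Serpinb1c were higher with siRNA than with the plasmids. The test was limma's moderated test over all 29554 probes tested, of siRNA minus the mean of the pcDNA3.1-MEG3 and pcDNA3.1 groups, with Benjamini-Hochberg adjusted p under 0.05 as the threshold. These are 3 of the 6 genes, all higher, set against 19.3% of all probes called in either direction, 10.4% higher and 8.89% lower. Ubxn4 was detected on 2 siRNA and 0 plasmid arrays, so only the negative control, the group it was chosen for, kept it in the test. Its place among the 3 and its p-value are therefore description only. On the scaled log2 measure, Ubxn4 averaged -5.26 ± 0.16 with siRNA, -8.21 ± 0.57 with pcDNA3.1-MEG3 and -7.80 ± 0.08 with pcDNA3.1 (SD, n = 2 samples each). The fitted difference was 2.74 (SE 0.26, limma adjusted p = 0.00208), but since 0 plasmid arrays were above background, the difference is given as at least 2.79-fold. Wdr19 averaged -4.51 ± 0.11 with siRNA, -6.99 ± 0.29 with pcDNA3.1-MEG3 and -6.65 ± 0.06 with pcDNA3.1, a fitted difference of 2.31 (SE 0.27, limma adjusted p = 0.00427). Against plasmid arrays that were all below background, Wdr19 was at least 4.34-fold higher. Serpinb1c, measured on every array, averaged -3.77 ± 0.04 with siRNA, -4.91 ± 0.05 with pcDNA3.1-MEG3 and -5.35 ± 0.06 with pcDNA3.1. It was 2.57-fold higher with siRNA, a difference of 1.36 log2 units (SE 0.13, 95% interval 1.04 to 1.68, limma adjusted p = 0.00229). For these 3 of the 6 genes the siRNA arrays did not overlap with the 6 plasmid arrays, which was so for 50% of all probes. The myoblast marker sum given above, mostly from Chrna1, Itga7 and Megf10, was also higher on siRNA arrays, though Des was lower there than with pcDNA3.1-MEG3. The part of these markers in the differences was not tested. All 3 genes missed the threshold when the background was corrected with normexp from the median signals, with differences of 0.23 for Ubxn4, 0.40 for Wdr19 and 0.37 for Serpinb1c and an adjusted p of 0.990 each.

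Fkbp11, Cox17 and Lyar did not pass in this comparison. Fkbp11 averaged -2.82 ± 1.25 with siRNA, -4.90 ± 0.11 with pcDNA3.1-MEG3 and -3.80 ± 0.39 with pcDNA3.1. Its difference was 1.54 log2 units (95% interval -0.05 to 3.12, limma adjusted p = 0.142). Fkbp11 passed with 12 arrays as 12 samples (1.86, limma adjusted p = 0.00881) and with scan run as a random block (1.79, limma adjusted p = 0.000559). Both fits count replicates 1 and 3 as separate samples, and 52.2% and 69.5% of all genes passed in them, against 19.6% in the main fit. Without siRNA replicate 2, its low array, the difference was 2.42 (limma adjusted p = 0.0465), with the lone siRNA sample assumed to vary like the other groups. Cox17 averaged -4.68 ± 1.05 with siRNA, -4.60 ± 0.22 with pcDNA3.1-MEG3 and -4.22 ± 0.08 with pcDNA3.1, a difference of -0.27 (95% interval -1.32 to 0.78, limma adjusted p = 0.659), which was 0.47 without siRNA replicate 2. Lyar averaged -6.32 ± 0.20 with siRNA, where it was not well above background, -6.57 ± 0.46 with pcDNA3.1-MEG3 and -6.01 ± 0.31 with pcDNA3.1. The Lyar test gave a limma adjusted p of 0.937, and since 0 siRNA arrays detected it, no size of the difference is given. The sign of both tests, for Cox17 and Lyar, depended on the scaling and on single samples.

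Between the plasmid groups, 0 of the 6 genes passed, where 0.00676% of all probes did, 2 of 29601, and 3483 had an unadjusted p under 0.05. Ubxn4 and Wdr19 were not well above background in either group, so no difference is given for them. The arrays of the plasmid groups did not overlap for 3 of the 6 genes, Serpinb1c, Fkbp11 and Cox17, and for 64.7% of all probes. Serpinb1c differed by 0.44 log2 units (SE 0.15, 95% interval 0.07 to 0.81, limma adjusted p = 0.357). The Serpinb1c difference was 0.43 within the first scan run and 0.45 within the second. The second run holds replicate 3 alone, which differed from replicate 1 by 0.339 and 0.261 times the spot noise in the 2 plasmid groups. The runs may therefore measure the same samples again, here and for Fkbp11 below, and are no separate repeat. The Serpinb1c difference passed in 3 of 15 alternative settings, 1 of them with 12 arrays as 12 samples, which counts replicates 1 and 3 separately (limma adjusted p = 0.0145). With the normexp correction the Serpinb1c difference turned to -1.26. Fkbp11 differed by -1.10 (95% interval -2.93 to 0.73, limma adjusted p = 0.587), with -1.11 in the first and -0.72 in the second run. Lyar, detected on 2 of 3 pcDNA3.1-MEG3 arrays, differed by -0.55 (95% interval -1.37 to 0.26) and Cox17 by -0.38 (95% interval -1.59 to 0.83), with limma adjusted p of 0.551 and 0.770. For these, the intervals leave room for a change of over 2-fold in the direction of lower signal.

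**Figure D3:**
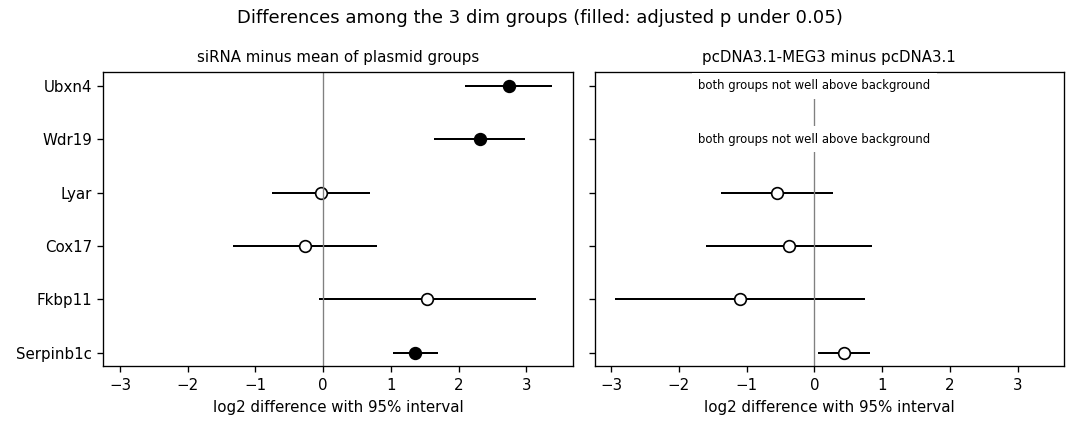
Log2 differences with 95% intervals for siRNA minus the mean of both plasmid groups (left) and pcDNA3.1-MEG3 minus pcDNA3.1 (right), from the limma fit on 8 samples. Filled points, for Ubxn4, Wdr19 and Serpinb1c on the left, had an adjusted p under 0.05. Ubxn4 was kept in the test only through the negative control, so its point is description only. On the left, the Ubxn4 and Wdr19 values are set against plasmid arrays that were not well above background. The Lyar value on the left comes from siRNA arrays that were not well above background. None of these values has a measured size.

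Genes related to the 6 by complex, pathway or family were then counted by their brightest kept probe, in 6 lists with 134 genes measured and 133 tested. In the mean of the siRNA, pcDNA3.1-MEG3 and pcDNA3.1 groups minus the negative control, 18 were higher and 5 lower, or 17.3%, against 16.9% of all genes, 11.6% higher and 5.23% lower. The lists had a median of 0.05 log2 units and a range of -1.07 to 2.08, and the median of all genes was 0.15. Without negative control replicate 2 the counts were 31 higher and 34 lower, while 19.8% and 17.3% of all genes were, and without replicates 1 and 3 they were 45 and 15, with 24.0% and 10.1% of all genes. With the arrays centred on their medians they were 7 higher and 20 lower, with 4.67% and 14.6% of all genes.

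Of the lists for Ubxn4, Wdr19, Cox17 and Fkbp11, 6.45%, 4.55%, 8.70% and 21.4% of the genes tested passed, beside the 16.9% of all genes. Of 31 UBX proteins and ER degradation genes, Ubxn10, a UBX protein linked to cilia, was at least 2.77-fold higher (limma adjusted p = 0.0151). Ubxn10 was above background on 2 of 3 negative control arrays. Vcp, the ATPase that Ubxn4 binds, differed by 0.01 and did not pass. Of 22 intraflagellar transport genes tested, Ttc26 was higher by 0.67 (limma adjusted p = 0.0152) and 0 were lower. The complex A partners of Wdr19 did not pass, with 0.08 for Ift122, 0.22 for Ift140, 0.05 for Wdr35 and -0.26 for Ttc21b. Of 23 genes of copper delivery to, and assembly of, cytochrome c oxidase, the copper protein Sco2 (0.64, limma adjusted p = 0.0150) and the import receptor Chchd4 (0.61, limma adjusted p = 0.0248) were higher. Sco1 and Cox11, which receive copper from Cox17, had 0.26 and 0.34 and did not pass. Of 14 FK506-binding proteins, Fkbp4 was higher, with 0.74, and Fkbp15 and Fkbp1b were lower, with -1.07 and -0.48, at limma adjusted p of 0.0325, 0.0146 and 0.0375. The ER members Fkbp2, Fkbp7, Fkbp9, Fkbp10 and Fkbp14 had -0.62, 0.14, -0.54, -0.46 and -0.41 and did not pass.

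The nucleolar and serpin lists held more called genes than the 16.9% of all genes, 11.6% higher and 5.23% lower. Of 30 nucleolar genes, 9 were higher and 1 lower than in the negative control, or 33.3%, with a median of 0.34 log2 units. Pes1, a ribosome assembly factor, was higher by 1.07 (SE 0.11, limma adjusted p = 0.00445), Polr1b, an RNA polymerase I subunit, by 0.98 (limma adjusted p = 0.00433), and Utp15, a processing factor of ribosomal RNA, by 0.89 (limma adjusted p = 0.00550). Nucleolin, Ncl, was lower, with -0.43 (limma adjusted p = 0.0404), and nucleophosmin, Npm1, had 0.56 and did not pass. The nucleolar counts moved along with those of all genes: they were 14 higher and 2 lower without negative control replicate 2 and 19 and 2 without replicates 1 and 3, where 37.1% and 34.0% of all genes passed. They were 3 and 0 without pcDNA3.1-MEG3 replicates 1 and 3, 4 and 0 without pcDNA3.1-MEG3 replicate 2 and 4 and 0 without pcDNA3.1 replicates 1 and 3, where 5.88%, 5.55% and 7.48% of all genes passed. With median centring they were 3 and 2, with 19.2% of all genes. Of 13 clade B serpins, 4 were higher and 1 lower, or 38.5%, the lower one at a limma adjusted p of 0.04997. The serpin counts were 3 and 1 with median centring and 4 and 0 with quantile normalisation, where 19.2% and 18.4% of all genes passed. Serpinb7 was higher by 1.24 (SE 0.10, limma adjusted p = 0.00187) and Serpinb2, an inhibitor of plasminogen activators, by 1.64 (SE 0.16, limma adjusted p = 0.00366). Serpinb11, above background on 0 negative control arrays, was at least 2.15-fold higher (limma adjusted p = 0.0111). The remaining serpin called higher was above background on 0 siRNA and 0 negative control arrays, so no size is given. The nearest paralogs of Serpinb1c did not pass, with 0.06 for Serpinb1a and 0.45 for Serpinb1b. With normexp on median signals, 0 genes of these lists passed.

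**Figure D4:**
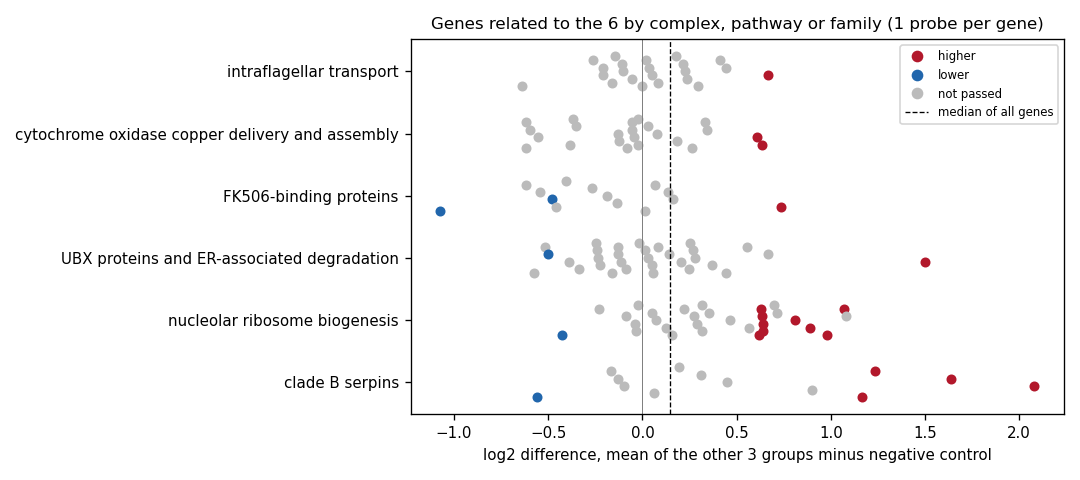
Log2 difference of the mean of the siRNA, pcDNA3.1-MEG3 and pcDNA3.1 groups minus the negative control for genes of the 6 lists, 1 point per gene at its brightest kept probe. Red and blue points passed as higher or lower. All points lie between -1.07 and 2.08, and the dashed line is the median of all genes, 0.15.

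Between siRNA and the plasmids, 5 of the 133 related genes were higher and 13 lower, or 13.5%, against 19.6% of all genes, 11.4% higher and 8.22% lower. The balance turned with the scaling, to 20 higher and 5 lower with median centring and to 11 and 14 with quantile normalisation. Fkbp2 was lower, with -1.49 log2 units (limma adjusted p = 0.00525), while Fkbp9 and Fkbp10 were higher by 0.86 and 0.72 (limma adjusted p = 0.0158 and 0.0282). Ncl and Pes1 were lower, with -1.57 and -1.33 (limma adjusted p = 0.000834 and 0.00197). Serpinb6b was the 1 clade B serpin that passed, higher by 0.90 (limma adjusted p = 0.0149). Between the plasmid groups, 0 of the related genes passed, against 0.00595% of all genes.

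Genes beside the 6 on the chromosomes were read as a last set, the nearest 2 measured on each side, 24 in all. Against the negative control, 3 were higher and 2 lower, or 20.8%, near the 16.9% of all genes. Both genes called lower lie on the same side of Lyar on chromosome 5: Zbtb49, a zinc-finger protein, had -2.26 log2 units (SE 0.24, limma adjusted p = 0.00425), and Nsg1, a neuronal endosomal protein, had -0.93 (SE 0.16, limma adjusted p = 0.0152). As in the lists, each neighbour was read at its brightest kept probe, so the second kept probe of Zbtb49, and of Rnd1 below, was not read. Zbtb49 averaged -3.29 ± 0.15 with siRNA, -4.28 ± 0.08 with pcDNA3.1-MEG3 and -4.70 ± 0.09 with pcDNA3.1, against -1.82 ± 0.62 with the negative control (SD, n = 2 samples each). Beside Wdr19, the coreceptor Klb was above background on 0 negative control arrays and at least 2.70-fold higher in the other groups (limma adjusted p = 0.0467). The neighbours called higher beside Cox17 and Fkbp11 were Popdc2 with 0.65 and Rnd1 with 0.96 (limma adjusted p = 0.0148 and 0.00495). These neighbours are named after their values were seen. For siRNA against the plasmids, 6 of the 24 were higher and 0 lower, or 25.0%, beside 19.6% of all genes (11.4% higher): Klhl5 and Fam114a1 beside Wdr19, Zbtb49 and Nsg1 beside Lyar, Pla1a beside Cox17 and Serpinb6b beside Serpinb1c.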

How the data were processed

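Per the file headers, linear spot intensities came from Agilent Feature Extraction 11.0.1.1, which subtracts background and a spatial trend and does not normalise between arrays; other deposited columns hold flags (score of 0 or 1). The authors' deposited series table holds linear intensities of 30732 probes with column medians of 276 to 277, in the direction of the signal (rank correlation of at least 0.999895 per array), and its scaling method and any centring stay unknown. Each array had 44397 spots, of which 1377 were controls and left out, and 0 were saturated. Non-outlier spots of a probe were averaged and 27234 of 39429 probes were named through RefSeq. The log2 signal minus each array's 75th percentile was fitted with limma 3.58.1 in R 4.3.3 (data.table version 1.17.8), with a mean per group over 8 samples, 4 residual and 1.91 prior degrees of freedom and two-sided tests. Probes detected on all arrays of 1 or more groups were kept (29611), among them 6 of the 7 probes of the 6 genes. Python 3.11.15 with pandas 2.3.3, scipy 1.17.1 and matplotlib 3.10.9 made the other tables and figures. The number of arrays limits the precision. The script was tested on simulated data.

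The 6 genes, the lists of related genes and the markers were chosen with earlier results of these data known. Named genes were all probes of the 6 genes, the 6 other genes with the largest gap, and, per list, up to 3 called genes with the smallest adjusted p and fixed partners and paralogs; the genes of the siRNA comparison were picked after their values were seen. A called gene of these lists is not reported here. Same-numbered samples of different groups did not deviate together (correlations from -0.11 to 0.01), so the replicate numbers pair no samples. RefSeq (GRCm38.p6) gave promoter windows for 5 of the 6 genes.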

Additional observations from a re-analysis of the deposited data

How the results depend on the processing

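The calls rest on 2 samples per group and depend on how arrays are counted. With 12 arrays as 12 samples, 4379 probes were called between the plasmids, 15411 for siRNA against the plasmids and 13698 against the negative control, in place of 2, 5700 and 5131. With scan run as a random block these were 3741, 20671 and 20962 (consensus correlation -0.32), and with normexp on median signals 0, 93 and 94. With only the compared groups fitted, 3694 and 11732 were called for the first and second comparison. With the replicate block, 1 probe was called between the plasmids, and the block changed no call of the 6 genes; crossing the siRNA numbers gave 4314 for siRNA against the plasmids. Leaving out samples in turn gave 0 to 0, 1982 to 5634 and 1782 to 10355. The 67 probes bright in the negative control alone were 305 with a gap of at least 1 log2 unit, and 72 to 142 with each negative control array left out, the highest without replicate 2. The share of higher calls, 53.9% for siRNA against the plasmids and 61.8% against the negative control, was 67.2% and 50.2% with quantile normalisation and 77.0% and 21.8% with median centring, where the median of all probes against the negative control moved to -0.20, in place of 0.15.

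The sign turned in 9 cases, of differences that did not pass in the first place. For siRNA against the plasmids, Cox17 had 0.021 with quantile normalisation and -1.01 to 0.47 without single samples (0.47 without siRNA replicate 2), and Lyar had 0.46 with quantile normalisation, 0.20 with median centring, 0.44 in the authors' table and -0.20 to 0.13 without single samples (0.11 without siRNA replicate 2, 0.13 without pcDNA3.1-MEG3 replicates 1 and 3 and 0.076 without pcDNA3.1 replicate 2). Serpinb1c between the plasmids had -1.26 with normexp. Over the values of the 6 genes and the counts of related genes, without the probe counts above, 286 stayed the same across the alternatives. For tested differences this meant the same direction and side of the threshold, and for counts and descriptive values a similar size. Another 38 counts or descriptive values moved, 6 differences passed that had not and 3 no longer passed. Normexp on mean signals was not run, since the files used hold median signals, and the normexp and crossed fits given here were chosen after seeing the data; the cause of these changes was not tested. Probes near background, Ubxn4, Wdr19 and Lyar in the dim groups, allow bounds only.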
